A study of Rattus norvegicus with 15 samples.

Results

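Liver RNA from male Sprague-Dawley rats at day 450 of life was compared between offspring of calorie-restricted mothers and offspring of control-fed mothers, on 6 of the 15 arrays of the series. The restricted group, IPCR, had too few calories both in the womb and as sucklings: the mothers received a 50% cut in calories from embryonic day 11 to 21 and again while nursing, from day 1 to 21 after birth. The control mothers ate normally through both periods. Arrays were chosen by their labels alone, 3 (A, B and C) in each group, and 14506 genes with a symbol were read from each array. The other 9 arrays are 3 controls and 3 IPCR livers at day 21, and 3 day 450 livers of a group named IUCR, whose mothers were restricted from embryonic day 11 to 21 only. At day 450 the restriction lay in early life, and no later diet is given for any group. The letters A, B and C are not tied to litters, and the number of litters is not given, and each p-value here is set against the scatter of these samples only. Hour of collection is not given either.

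The liver sets blood glucose, makes bile acids and urea, clears hormones and foreign compounds, and secretes most plasma proteins. Many of these tasks are divided along the lobule, with glucose and urea production near the portal vein and bile acid synthesis and drug metabolism near the central vein. A circadian clock, in which BMAL1 with CLOCK or NPAS2 activates genes for its own repressors (PER, CRY, NR1D1), imposes a daily rhythm on much of this metabolism. Calorie shortage before birth and during nursing is a widely used rat model of growth restriction, which is known for effects on glucose and lipid handling in adult life.

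Hepatocyte transcripts marked all 6 arrays as liver. Albumin (Alb) stood between 14.61 and 14.67 in controls and between 14.64 and 14.66 in IPCR on the log2 scale of the arrays, on which a step of 1 is a doubling of intensity. The 12 hepatocyte markers had a median log2 difference, IPCR minus control, of 0.02, the same as the median over all genes. Pairwise correlations over genes were 0.990 to 0.993 among controls, 0.991 to 0.993 among IPCR arrays and 0.986 to 0.993 between the groups.

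IPCR array C carried transcripts of the pancreatic acinar cell, the cell that secretes digestive enzymes. Pancreatic amylase (Amy2a3) stood at 6.44 and 6.59 on IPCR arrays A and B and at 10.06 on array C, against 6.37 to 6.48 in the controls. Carboxypeptidase A1 (Cpa1) read 5.60 and 5.83 on IPCR A and B, 8.60 on C, and 5.81 to 6.02 in the controls. Of 28 acinar genes measured, 21 were higher on array C than on all 8 other day 450 arrays, which held for 19.6% of all genes. Their summed linear intensity was 8314 on array C and 3149 to 3516 on the other 8. Lipase (Pnlip), carboxypeptidase B1 (Cpb1), Pnliprp1, Ctrb1, Cel and Gp2 were likewise above the other arrays on C, whereas the acinar transcription factors Ptf1a and Bhlha15 were not above the other arrays on C. Of 10 islet genes, 1 was highest on array C. With array C the acinar list had a median difference of 0.19, and without it the median was -0.03. Counts without this array are given below for the main results, and its part in genes outside the acinar list was not tested where they are not.

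**Figure D1:**
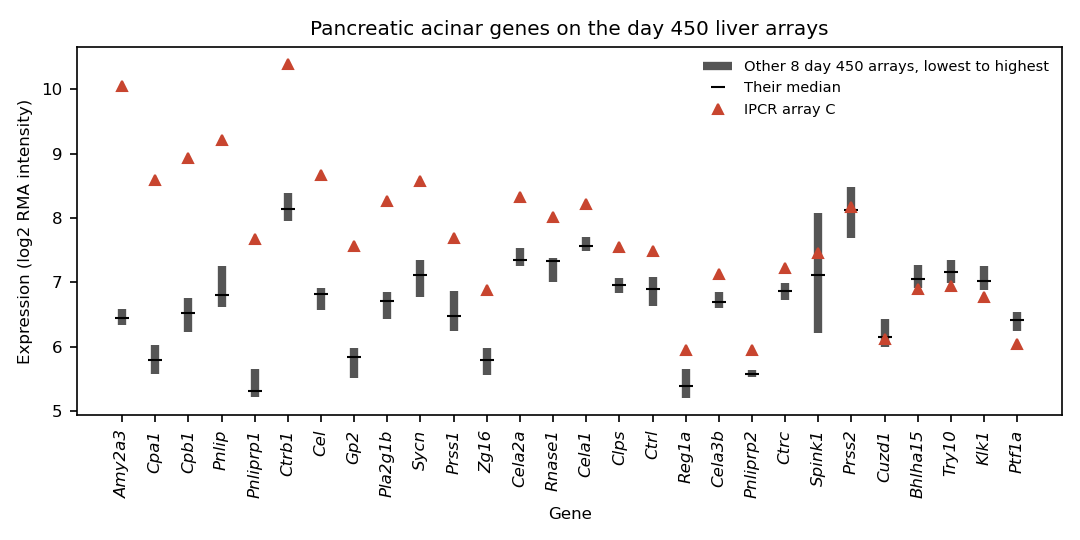
Level of each of 28 pancreatic acinar genes (log2 RMA intensity) on IPCR array C (triangle), with the lowest-to-highest range (bar) and median (dash) of the other 8 day 450 liver arrays. Array C lies above the range for 21 genes, with Amy2a3 at 10.06 the farthest above it, and within or below the range for the genes at the right.

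The arrays also differed in overall spread. The interquartile range of log2 values was 2.31, 2.27 and 2.19 on the controls and 2.36, 2.29 and 2.45 on the IPCR arrays, in the order A, B and C, so the groups overlapped at control A and IPCR B. Genes of high level tended to be higher in IPCR and genes of low level lower. In the top of 4 equal groups of genes by mean level the median difference was 0.11, and 93.5% of genes below an unadjusted limma p of 0.05 were higher in IPCR. In the lowest group the median was -0.05 and 19.4% were higher. When all arrays were forced to the same distribution (quantile normalization), these shares were 47.0% and 48.8%. In the top group 21.1% of all genes were higher in IPCR at that p and 1.46% lower, and in the lowest group 1.71% and 7.09%.

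**Figure D2:**
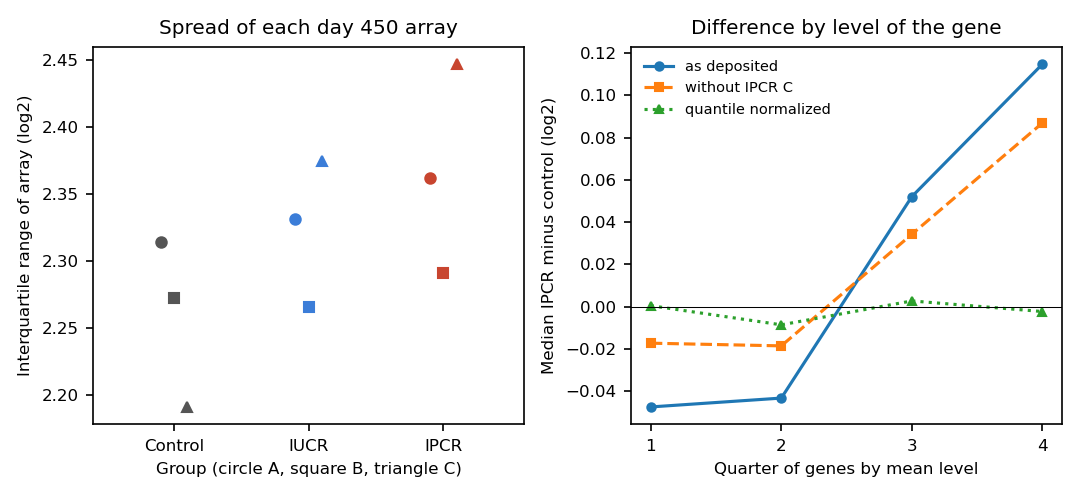
Left, interquartile range of log2 intensity on each day 450 array by group. Right, median IPCR minus control difference (log2) in 4 equal groups of genes ranked by mean level, as deposited, without IPCR array C, and after quantile normalization. As deposited the median climbs from -0.05 in the lowest group to 0.11 in the highest, without array C from -0.02 to 0.09, and after quantile normalization it stays near 0.

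In this comparison 5 genes passed the threshold of an adjusted limma p below 0.05 (0.0345% of the genes tested), 3 higher and 2 lower in IPCR. They were a chemokine, a steroid and drug conjugating enzyme, a subunit of the Mediator complex, a sugar phosphate enzyme of glycosylation and an enzyme that makes cysteinyl leukotrienes. Cxcl14, a chemokine made by epithelia and liver, stood at 8.24, 8.18 and 8.33 in controls and at 9.33, 8.98 and 9.13 in IPCR. All 3 IPCR arrays lay above all controls, and IUCR, at 8.16, 8.60 and 8.11, lay with the controls. Cxcl14 rose 1.86-fold (log2 difference 0.90, SE 0.12, limma adjusted p = 0.0255). Ugt2b1, a UDP-glucuronosyltransferase that conjugates steroids and drugs, stood at 9.97, 10.03 and 10.08 in controls and at 10.93, 11.03 and 10.83 in IPCR, with IUCR at most 10.32. The IPCR arrays were again all above both other groups, and Ugt2b1 rose 1.87-fold (0.90, SE 0.13, limma adjusted p = 0.0255).

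Med14, which joins the core modules of the Mediator complex at RNA polymerase II promoters, read 4.97, 4.97 and 4.99 in controls and 5.52, 5.86 and 5.66 in IPCR. IUCR, at 5.56, 5.13 and 5.36, lay above all controls and overlapped IPCR. Med14 rose 1.63-fold in IPCR against control (0.71, SE 0.11, limma adjusted p = 0.0255), at a level below the lower quartile of each of the 15 arrays. Pmm1, a phosphomannomutase, read 8.15, 8.26 and 8.20 in controls, 7.96, 7.88 and 7.92 in IUCR and 7.57, 7.52 and 7.66 in IPCR. The 3 groups did not overlap, and Pmm1 fell by 0.62 (SE 0.09, limma adjusted p = 0.0255). This gene has 2 probe sets, and the value is that of the brighter. With the mean of probe sets 4 of the 5 genes passed, and Pmm1 did not. Over all alternatives tried its difference ranged from -0.66 to -0.35.

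Ltc4s, leukotriene C4 synthase, showed the widest gap of the 5. Controls stood at 8.83, 9.07 and 9.32 and IPCR at 7.42, 7.90 and 7.63, while IUCR was spread at 8.11, 7.63 and 8.76. All IPCR arrays lay below all controls, and IUCR overlapped IPCR. Ltc4s was 2.68-fold lower in IPCR (log2 difference -1.42, SE 0.22, limma adjusted p = 0.0317).

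Leaving out the pancreas-bearing array left the size of these 5 differences almost as it was and the calls short of the threshold. Without IPCR C the log2 differences were 0.91 for Cxcl14, 0.95 for Ugt2b1, 0.72 for Med14, -0.66 for Pmm1 and -1.41 for Ltc4s. All 5 kept an unadjusted limma p below 0.05, but their adjusted p were 0.107 for Cxcl14, Ugt2b1 and Pmm1, 0.144 for Med14 and 0.163 for Ltc4s, and no gene passed. Over all alternatives tried, adjusted p ranged from 0.00919 to 0.159 for Cxcl14 and from 0.0247 to 0.425 for Ltc4s. The count of genes passed was 0 without control A or IPCR A, 3 without control B, 3 without control C and 80 without IPCR B. Of the 5 genes, 0 were among those passed without control B, 1 without control C and 5 without IPCR B. After quantile normalization 3 genes passed, 1 higher and 2 lower.

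**Figure D3:**
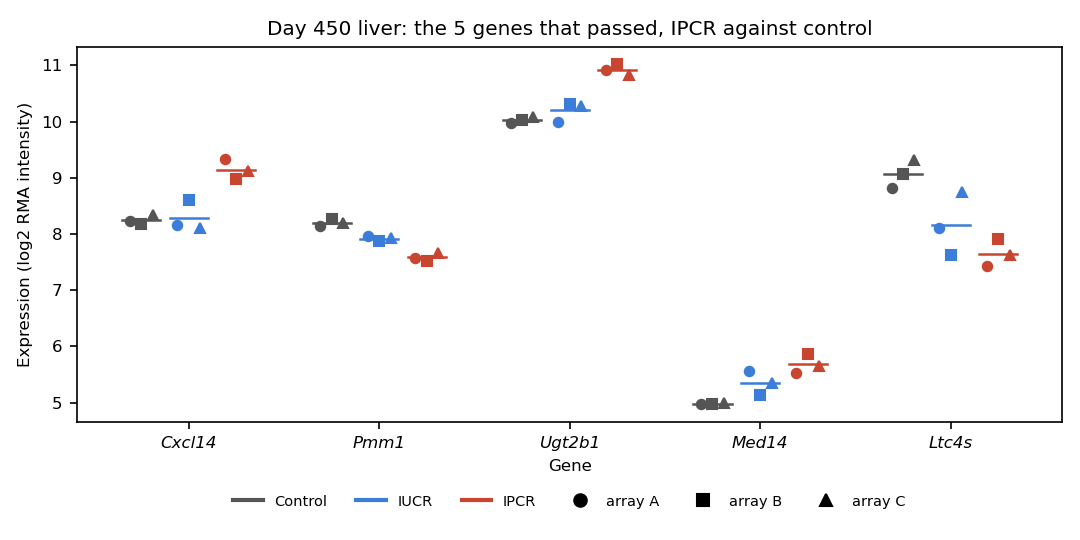
Level (log2 RMA intensity) of the 5 genes that passed on each of the 9 day 450 arrays, by group, with circles for array A, squares for B, triangles for C and a line at the mean of 3. IPCR and control do not overlap for any of the 5, and IUCR lies with control for Cxcl14, between them for Pmm1 and below control, overlapping IPCR, for Ltc4s. For Med14 IUCR lies above control and overlaps IPCR.

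The start regions of the gene with the largest fall and of the chemokine are shown because they differ in base composition. Each runs from 250 bases before to 50 bases after the RefSeq start site in build GRCr8, Cxcl14 at chr17:8322900-8323199 on the plus strand and Ltc4s at chr10:35063545-35063844 on the minus strand.
Cxcl14: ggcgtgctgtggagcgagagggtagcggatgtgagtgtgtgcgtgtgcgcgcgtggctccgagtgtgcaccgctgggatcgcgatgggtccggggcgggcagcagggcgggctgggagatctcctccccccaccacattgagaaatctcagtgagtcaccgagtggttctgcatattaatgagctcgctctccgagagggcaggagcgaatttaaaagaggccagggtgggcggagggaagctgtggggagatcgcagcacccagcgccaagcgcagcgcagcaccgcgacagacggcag
Ltc4s: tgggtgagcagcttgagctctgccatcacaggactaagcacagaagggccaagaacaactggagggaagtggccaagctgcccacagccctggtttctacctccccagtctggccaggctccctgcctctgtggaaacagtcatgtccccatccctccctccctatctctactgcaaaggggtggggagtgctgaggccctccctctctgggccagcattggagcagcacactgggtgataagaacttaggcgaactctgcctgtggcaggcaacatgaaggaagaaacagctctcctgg
The Cxcl14 region is 64.7% G or C with 26 CpG dinucleotides, and that of Ltc4s is 58.3% G or C with 1 CpG. The median over 33469 RefSeq promoters of this length was 51.7% and 7. Neither holds the E-box CACGTG, which 6.42% of all promoters hold, nor a D-box (TTATGTAA or TTACGTAA), which 1.01% hold, nor a ROR element, searched on both strands. The same was so for Ugt2b1, Med14 and Pmm1.

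Below the adjusted threshold a wider set of genes separated the groups. At an unadjusted limma p below 0.05, 1425 genes were higher in IPCR (9.82% of those tested) and 718 lower (4.95%). Higher genes made up 66.5% of these as deposited and 49.6% after quantile normalization, when 780 were higher and 794 lower. In 1738 genes (12%) all IPCR arrays lay above all controls, and in 836 (5.76%) all lay below. Without IPCR C, 764 genes (5.27%) were higher and 410 (2.83%) lower at p below 0.05, and 996 of the 2143 genes with all arrays had p below 0.05 in the same direction in both fits. An adjusted limma p of 0.10 or less was reached by 69 genes.

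The genes nearest the threshold, chosen by smallest p among those with separate groups with and without IPCR C, included signalling repressors and enzymes. Junb, an AP-1 transcription factor that responds within minutes to growth and stress signals, stood at 8.30, 8.32 and 8.23 in controls and at 7.66, 7.80 and 7.81 in IPCR. All IPCR arrays lay below all controls, with a difference of -0.53 (SE 0.09, limma adjusted p = 0.0502) and of -0.55 without IPCR C. Socs3, a feedback inhibitor of cytokine and insulin signalling, stood at 7.97, 7.85 and 7.97 in controls and at 7.48, 7.57 and 7.34 in IPCR, a difference of -0.47 (SE 0.10, limma adjusted p = 0.0925). Its groups did not overlap either. Ptprt, a receptor-type tyrosine phosphatase, differed by -0.69 (SE 0.12, limma adjusted p = 0.0502), and IUCR, at 6.46 to 6.57, lay with IPCR, at 6.51 to 6.55, below controls at 6.84 to 7.44. Hmga1, a chromatin architectural protein, differed by -0.48. The other lower genes of this group were Acbd7, Scgb1c1, Meig1, Xkr7, Syndig1l and Cyp21a1, with differences from -0.58 for Acbd7 to -0.38 for Cyp21a1.

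On the higher side, Gpt, the alanine aminotransferase that feeds alanine carbon into glucose production, stood at 9.01, 9.35 and 8.84 in controls and at 10.33, 9.66 and 10.58 in IPCR. The groups were separate, IUCR spread from 9.25 to 9.99, and the difference was 1.12 (SE 0.22, limma adjusted p = 0.0759) with all arrays and 0.93 without IPCR C. Echdc1, which clears a faulty product of fatty acid synthesis enzymes, read 7.02, 7.19 and 7.28 in controls and 7.81 to 8.07 in IPCR. Every IPCR array was above every control, a difference of 0.79 (SE 0.14, limma adjusted p = 0.0504). Galr3, a galanin receptor, Med13, a subunit of the Mediator kinase module, and Ccdc80, a secreted matrix protein, differed by 0.40, 0.43 and 0.46, with limma adjusted p of 0.0502, 0.0502 and 0.0504. Ranbp6, Zfp131, Afg2a and Pus3 differed by 0.43 to 0.47.

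Cyp7a1 and Cyp8b1, enzymes of bile acid synthesis, were higher in IPCR, without passing the adjusted test. Cyp7a1, the rate-limiting enzyme of bile acid synthesis, stood at 9.77, 9.64 and 10.69 in controls, at 9.42, 9.63 and 9.22 in IUCR and at 11.48, 10.89 and 11.57 in IPCR. Each IPCR array was above the 6 others, and control C was the highest of those. The difference from control was 1.28 (SE 0.25, limma adjusted p = 0.0759), or 2.43-fold, and 1.15 without IPCR C. Cyp8b1, the 12-alpha-hydroxylase that sets the share of cholic acid, read 11.29, 11.05 and 11.88 in controls and 12.66, 12.06 and 12.38 in IPCR. The groups were separate, a difference of 0.96 (SE 0.31, limma adjusted p = 0.199) with all arrays and 0.95 without IPCR C. Nr1h4, which encodes the bile acid receptor FXR, averaged 9.95 in controls and read 10.27 to 10.46 in IPCR, a difference of 0.39. Of 18 genes of bile acid and sterol transport, 4 were higher and 0 lower at unadjusted p below 0.05, 6 had separate groups with IPCR higher, and the list median was 0.12 as deposited and 0.02 after quantile normalization. Without IPCR C, 3 were higher and the median was 0.07. Of the 18, 14 lie in the group of highest level, so that 4 of 18 is close to the 21.1% of all genes there.

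Cholesterol synthesis genes, 19 measured, had a median of 0.24, or 0.10 after quantile normalization. In 6 of them all IPCR arrays lay above all controls, which held for 12% of all genes. Of the 19, 15 lie in the group of highest level, where 21.1% of all genes were higher at p below 0.05. Among the 19, 1 had p below 0.05. That gene was Stard4, a sterol carrier, at 7.89, 7.94 and 8.04 in controls and 8.34, 8.15 and 8.53 in IPCR, a difference of 0.38 (SE 0.10, limma adjusted p = 0.153). The list's mean, relative to its mean over the day 450 controls, was -0.13, -0.11 and 0.23 on the controls and 0.27, 0.24 and 0.30 on IPCR, so control C was close to the IPCR arrays. Leaving out control C gave a median of 0.34, and leaving out control A 0.16.

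Glucose production and amino acid breakdown were higher on IPCR arrays A and C than on B. Of 17 gluconeogenesis and glycogen genes, 6 were higher and 0 lower at p below 0.05, with a median of 0.28 (0.17 after quantile normalization, 0.32 without IPCR C). Of the 17, 14 lie in the group of genes of highest level, where 21.1% of all genes were higher. Besides Gpt, Sds, the serine dehydratase that makes pyruvate from serine, stood at 7.53, 7.44 and 7.78 in controls and at 9.90, 7.70 and 9.18 in IPCR, a difference of 1.34 (SE 0.40, limma adjusted p = 0.185). IPCR B lay within the controls, so the groups overlapped. Tat, the tyrosine aminotransferase, read 11.71, 11.91 and 11.92 in controls and 12.96, 12.37 and 12.46 in IPCR, which were separate, with a difference of 0.75 (SE 0.22, limma adjusted p = 0.174). Pygl, liver glycogen phosphorylase, differed by 0.33, and IUCR differed from control by the same 0.33.

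Among 17 genes of the urea cycle and amino acid breakdown the median was 0.31 (0.25 after quantile normalization), with 6 higher and 0 lower at p below 0.05. All 17 lie in the group of genes of highest level, where 21.1% of all genes were higher. The first enzyme of the urea cycle, Cps1, stood at 13.13, 13.27 and 13.34 in controls and at 13.67, 13.45 and 13.58 in IPCR, with no overlap and a difference of 0.32 (SE 0.10). Gldc, of the glycine cleavage system, differed by 0.42, and Hpd, of tyrosine breakdown, by 0.36, both with separate groups. Gls2, liver glutaminase, read 11.62 and 11.57 on IPCR A and C but 10.66 on B, below the controls at 10.69 to 10.79. The list mean was -0.01, 0.02 and -0.01 on the controls and 0.42, -0.01 and 0.48 on IPCR A, B and C. Without IPCR B, 12 of the 17 had p below 0.05 and the median was 0.44. Without IPCR C the count was 2 and the median 0.19.

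Read by position in the lobule, 12 periportal genes had a median of 0.30 (0.25 after quantile normalization), with 7 higher and 0 lower at p below 0.05 and the same number with separate groups. The list shares Sds, Gls2 and Cps1 with those above, and 4 or 5 of its genes had p below 0.05 when any array of the 6 was left out. The 13 pericentral genes had a median of 0.24 on both scales, with 6 higher and 0 lower, and 2 higher without IPCR C. In the group of genes of highest level, where 21.1% of all genes were higher, lie 11 of the 12 periportal and 8 of the 13 pericentral genes. Gstm2, a glutathione transferase, stood at 12.12 to 12.31 in controls and 12.57 to 12.64 in IPCR, a difference of 0.39. Axin2, a feedback inhibitor of Wnt signalling, and Cyp2e1, which oxidises ethanol, overlapped between groups, with differences of 0.24 and 0.33.

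Of 11 insulin signalling genes, 2 were higher and 1, Socs3 above, lower, with a median of 0.14. Nr3c1, the glucocorticoid receptor, read 10.22, 9.95 and 10.22 in controls and 10.72, 10.43 and 10.62 in IPCR, a difference of 0.46 (SE 0.10, limma adjusted p = 0.098). Irs1, the adaptor of the insulin receptor, read 9.04, 8.99 and 8.95 in controls and 9.32, 9.31 and 9.48 in IPCR, a difference of 0.37 (SE 0.08, limma adjusted p = 0.081) with all arrays and 0.32 without IPCR C. Neither gene's groups overlapped. Hsd11b1, which regenerates active glucocorticoid inside the cell, differed by 0.32. Of 13 glucocorticoid targets 4 were higher, Tat, Nr3c1 and Hsd11b1 among them, and the list median was 0.08. Of the 13, 9 lie in the group of genes of highest level, where 21.1% of all genes were higher. Without IPCR C 3 were higher, and the median was 0.02 without control C, 0.25 without control A and 0.29 without IPCR B. The other insulin signalling gene with a higher value, Pik3r1, overlapped between groups.

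Among 13 genes of the growth hormone axis the median was 0.01 and 1 gene had p below 0.05. Cish, a target and feedback inhibitor of growth hormone signalling, stood at 9.59, 9.48 and 8.75 in controls, at 8.45, 7.29 and 7.80 in IPCR and at 10.05, 9.97 and 7.40 in IUCR. The IPCR arrays were all below the controls, with a difference of -1.43 (SE 0.60, limma adjusted p = 0.291), while IUCR spanned both. The 8 male-biased liver genes measured had a median of 0.41 (0.31 without IPCR C, 0.16 without control C, 0.61 without control A, -0.16 with the interquartile range as covariate), none with p below 0.05, and the 7 female-biased genes -0.03 (0.16 without control C).

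**Figure D4:**
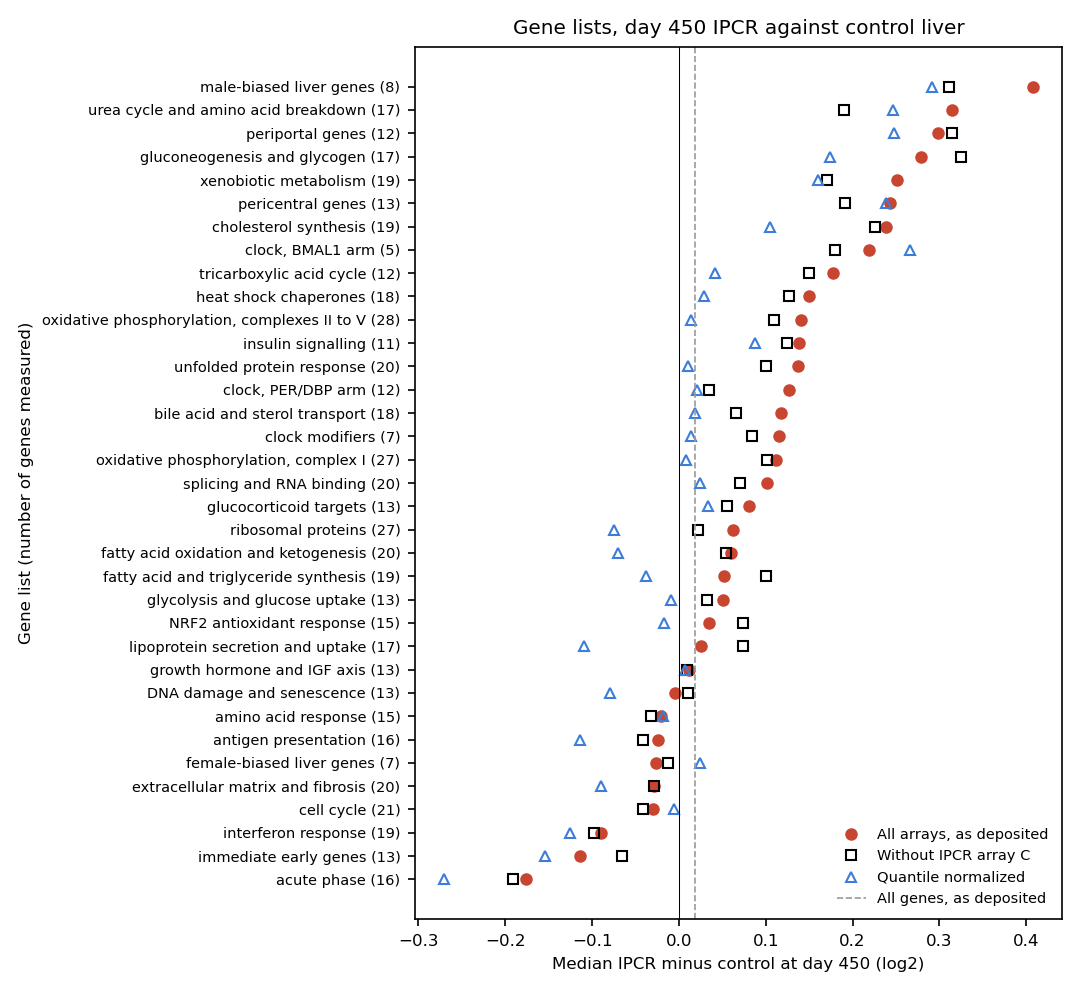
Median IPCR minus control difference (log2) at day 450 of each metabolic and signalling gene list, with the number of genes measured, for all arrays as deposited (filled circles), without IPCR array C (open squares) and after quantile normalization (open triangles). The dashed line is the median of all genes, 0.02. Male-biased, periportal, pericentral, urea cycle and gluconeogenesis lists and the clock list with Bmal1 are among those to the right on all 3 scales. The acute phase list is among those to the left, while the oxidative phosphorylation lists move to near 0 after quantile normalization.

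Lipid genes showed no common direction. Cyp4a1, a fatty acid omega-hydroxylase and a target of PPAR-alpha, stood at 11.16, 11.49 and 10.95 in controls and at 10.81, 10.39 and 10.57 in IPCR, a difference of -0.61 (SE 0.17, limma adjusted p = 0.164). Cd36, a fatty acid uptake receptor, read 9.45, 9.67 and 9.38 in controls and 8.63, 8.69 and 8.79 in IPCR, a difference of -0.79 (SE 0.28, limma adjusted p = 0.23). Both had separate groups, with IPCR lower. By contrast Acadm, of medium-chain fatty acid oxidation, and Bdh1, of ketone body formation, differed by 0.25 and 0.30. The 20 fatty acid oxidation genes had a median of 0.06 (-0.07 after quantile normalization), 3 higher and 1 lower with all arrays and 0 higher and 1 lower without IPCR C, and the 19 fatty acid and triglyceride synthesis genes a median of 0.05, with Dgat2 higher by 0.29 and malic enzyme (Me1) lower by 0.73, its groups overlapping.

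Respiratory chain and citric acid cycle genes were slightly higher in IPCR on the deposited scale only. Of 28 genes of complexes II to V, 7 were higher and 0 lower at p below 0.05, with a median of 0.14, and of 27 complex I genes 4 were higher, with a median of 0.11. Of the 28, 26 lie in the group of genes with the highest levels, where 21.1% of all genes were higher. Without IPCR C the counts were 2 and 1, and after quantile normalization they were 0 and 1, with medians of 0.01 and 0.01. Atp5pd, a subunit of the ATP synthase, stood at 10.56, 10.57 and 10.48 in controls and at 10.72, 10.66 and 10.80 in IPCR, a difference of 0.19 (SE 0.07). Cox4i1, Atp5f1c and, in complex I, Ndufs1 and Ndufs3 differed by 0.18 to 0.25 with separate groups, and Ndufa10 by 0.52 with overlap. The 12 citric acid cycle genes had a median of 0.18 (0.04 after quantile normalization), 4 of them higher at p below 0.05 and 1 without IPCR C, with Dld, Ogdh and Suclg2 higher by 0.18 to 0.24. All 12 lie in the same group of highest level. The IUCR minus control medians were 0.11 for complex I and 0.11 for complexes II to V.

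Several acute phase and immune genes were lower in IPCR, short of the adjusted test. Of 16 acute phase genes, 0 were higher and 3 lower at p below 0.05, and the median was -0.18 (-0.27 after quantile normalization, when 9 were lower). Of the 16, 15 lie in the group of highest level, where 1.46% of genes were lower, beside 4.95% over all genes. Lbp, which binds bacterial lipopolysaccharide, stood at 12.91, 11.92 and 12.08 in controls and at 11.80, 11.65 and 11.72 in IPCR, a difference of -0.58 (SE 0.19, limma adjusted p = 0.204). Control A was far above the other controls, but all 3 IPCR arrays were below all 3. Fgb, a fibrinogen chain, differed by -0.21, again without overlap, and A2m by -0.60 with overlap. Without control A the list's median was -0.06 and 1 gene was lower at p below 0.05.

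Antigen presentation genes had a median of -0.02, with 3 of 16 lower at p below 0.05. Of these 16, 6 lie in the group of highest level, and over all genes 4.95% were lower at that p. RT1-Bb, a class II histocompatibility chain, read 8.63, 8.77 and 8.16 in controls, 8.03, 8.04 and 7.63 in IUCR and 7.69, 7.74 and 7.68 in IPCR. Its IPCR arrays were tightly grouped below the controls, with a difference of -0.82 (SE 0.23, limma adjusted p = 0.164). Tap1, the peptide transporter for class I loading, read 9.07 to 9.18 in controls and 8.40 to 8.74 in IPCR, a difference of -0.51 (SE 0.12, limma adjusted p = 0.13). Psmb10, an immunoproteasome subunit, differed by -0.20. The 19 interferon response genes had a median of -0.09, and Ifit1 varied from 5.10 to 8.67 among controls alone.

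The immediate early genes, which are switched on within minutes of a stimulus, were lower in 3 of 13 at p below 0.05 and separate with IPCR lower in 6. Over all genes 4.95% were lower at that p and 5.76% were separate with IPCR lower. From the lowest to the highest level group, 7.09%, 7.53%, 3.72% and 1.46% of genes were lower, and 3 of the 13 lie in the highest. Egr1 stood at 8.12, 8.19 and 8.89 in controls and at 7.62, 7.77 and 7.70 in IPCR, a difference of -0.71 (SE 0.21, limma adjusted p = 0.186), and the third was Klf4 at -0.22, after Junb. Klf4 was at -0.09 without IPCR C. The list median was -0.11. Gadd45a and Gadd45g, stress-induced growth arrest genes, differed by -0.58 and -0.80 among 13 DNA damage and senescence genes with a median of 0.00.

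Markers of other liver cell types were given the same test, since in whole liver fewer cells of a type and less RNA per cell cannot be told apart. Over all genes 4.95% were lower at p below 0.05 and 5.76% were separate with IPCR lower. Of the 12 macrophage markers 9 lie in the group of highest level, where 1.46% of genes were lower. The cholangiocyte, B and plasma cell and neutrophil markers all lie below that group. From the lowest to the third group 7.09%, 7.53% and 3.72% of genes were lower. Of 12 macrophage markers 2 were lower and 0 higher, with a median of -0.17 (-0.22 without IPCR C, -0.04 without control A or IPCR A). Lyz2, lysozyme, stood at 8.41, 8.26 and 8.28 in controls and at 7.34, 8.24 and 7.83 in IPCR, and C1qb, of complement, differed by -0.26. Of 6 cholangiocyte markers 3 were lower, with a median of -0.26. Cldn4, a tight junction protein of bile ducts, read 7.15, 7.30 and 7.35 in controls and 6.88, 7.04 and 6.84 in IPCR, a difference of -0.35 (SE 0.09, limma adjusted p = 0.153), and Krt7 differed by -0.25, both separate. In 5 B and plasma cell markers 2 were lower, of which Jchain, the joining chain of secreted antibody, differed by -0.58 and Cd79b by -0.32. The T and NK cell, endothelial, and stellate cell lists had medians of 0.03, 0.15 (0.04 without control C, 0.07 without IPCR C) and 0.03. The 9 neutrophil markers had a median of -0.19 (-0.13 without IPCR C), with 0 below p of 0.05 and 2 separate with IPCR lower. The part of these markers in the immune gene values above was not tested.

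No clock gene passed the adjusted test, and the widest differences were those of Noct and Bhlhe41. Noct, a rhythmic phosphatase of nicotinamide cofactors also called nocturnin, stood at 6.24, 6.41 and 6.76 in controls, at 6.16, 6.25 and 6.59 in IUCR and at 8.82, 7.19 and 8.31 in IPCR. Every IPCR array was above the 6 others, although IPCR B was only slightly so. Its difference of 1.64 (SE 0.34, limma adjusted p = 0.0875), 3.11-fold, was 1.54 without IPCR C. Bhlhe41, a repressor that acts on E-boxes, read 6.56, 6.38 and 6.48 in controls and 7.25, 6.59 and 7.19 in IPCR, a separate difference of 0.54 (SE 0.16, limma adjusted p = 0.186). Of the activating arm, Bmal1 read 6.31, 6.53 and 6.61 in controls, 7.07, 7.45 and 7.99 in IUCR and 6.24, 7.06 and 6.81 in IPCR, which overlapped the controls (difference 0.21, SE 0.23).

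Clock and Npas2 differed by 0.22 and 0.35, and Nfil3 and the repressor gene Cry1, which were listed with Bmal1, by 0.11 and 0.29. The outputs were closer still: Per1, Per2, Per3, Dbp and Tef differed by 0.04, 0.12, 0.03, 0.10 and 0.05, with SE from 0.12 to 0.23. Dbp, for example, read 11.61, 11.49 and 11.32 in controls and 11.76, 11.24 and 11.72 in IPCR, and IPCR B was the lowest of the 3 IPCR arrays for Per1, Per2, Per3, Dbp, Tef and Usp2. Nr1d1, which represses Bmal1, was separate at 10.41 to 10.82 against 10.92 to 11.11, a difference of 0.38. Nr1d2, Cry2, Tsc22d3 and Usp2 differed by 0.14 to 0.16, and Wee1 by -0.25. Among modifiers, Gsk3b was separate with 0.21, Timeless differed by 0.13 and Csnk1d by 0.12, and Btrc, Csnk1e and Bhlhe40 by 0.04, -0.02 and -0.26. None of the 24 clock genes measured passed the adjusted test, 6 had p below 0.05 with IPCR higher and 0 lower, and without IPCR C the counts were 2 and 0. Over all genes 9.82% were higher at that p, 21.1% in the group of highest level, and 5.27% of all genes without IPCR C.

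Start regions of a clock gene with a ROR element and of another with an E-box show the sites through which the loop is known to work, in capitals. They are Bmal1 at chr1:176766078-176766377 on the plus strand and Bhlhe41 at chr4:180569306-180569605 on the minus strand, from RefSeq in GRCr8. NR1D1 and ROR factors bind the first kind of site and BMAL1 with CLOCK the second.
Bmal1: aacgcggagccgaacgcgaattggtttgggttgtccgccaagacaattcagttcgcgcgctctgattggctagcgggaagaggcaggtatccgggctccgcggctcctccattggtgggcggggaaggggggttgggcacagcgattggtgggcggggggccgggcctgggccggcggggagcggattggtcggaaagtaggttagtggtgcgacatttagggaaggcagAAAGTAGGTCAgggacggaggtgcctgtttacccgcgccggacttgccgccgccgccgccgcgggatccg
Bhlhe41: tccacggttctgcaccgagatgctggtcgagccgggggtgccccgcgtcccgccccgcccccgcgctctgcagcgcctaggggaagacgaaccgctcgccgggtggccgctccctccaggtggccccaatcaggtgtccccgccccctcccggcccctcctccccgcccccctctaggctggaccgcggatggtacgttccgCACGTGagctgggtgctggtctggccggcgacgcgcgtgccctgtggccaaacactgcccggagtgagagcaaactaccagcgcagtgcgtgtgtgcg
The ROR element begins 20 bases before the Bmal1 start site, and 0.356% of all promoters hold one. The E-box begins 48 bases before the Bhlhe41 start site. Noct, with the largest difference among clock genes, holds none of the 3 motifs in its window, and Per2 holds a D-box that begins 192 bases before its start.

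Against the IUCR livers of the same age, which share the restriction before birth but not that during nursing, 6 genes passed (0.0414% of those tested), 5 higher and 1 lower in IPCR, and 1084 had an unadjusted p below 0.05. Cyp7a1 was higher than in IUCR by 1.89 (SE 0.25, limma adjusted p = 0.0243), and Cxcl14 by 0.86 (SE 0.12, limma adjusted p = 0.0304). Zfp189, a zinc finger gene, stood at 7.77, 7.55 and 7.72 in IUCR and at 8.97, 8.29 and 9.12 in IPCR, and rose by 1.11 (SE 0.18, limma adjusted p = 0.0448). Gstm3, a glutathione transferase, stood at 7.44, 7.42 and 7.72 in IUCR and at 9.04, 8.18 and 8.49 in IPCR, a rise of 1.04 (SE 0.17, limma adjusted p = 0.0472). Pus3, which makes pseudouridine in transfer RNA, rose by 0.52 (limma adjusted p = 0.0448). Apol3l1 read 9.28, 9.47 and 9.77 in IUCR and 8.19, 8.39 and 8.47 in IPCR, and was lower by 1.16 on the log2 scale (difference -1.16, SE 0.18, limma adjusted p = 0.0448).

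All 3 IPCR arrays were beyond all 3 IUCR arrays for each of these 6. Side by side, IUCR minus control and IPCR minus control, which share the control arrays, were -0.61 and 1.28 for Cyp7a1, 0.04 and 0.90 for Cxcl14, -0.32 and 0.79 for Zfp189, -0.22 and 0.82 for Gstm3, and 0.68 and -0.48 for Apol3l1. IUCR array B stood apart in sex-biased genes: Cyp2c12, a female-biased P450, read 8.98, 12.01 and 9.84 on IUCR A, B and C and 8.48 to 10.01 in IPCR, and Cyp2c11, a male-biased P450, 13.42, 11.64 and 13.30 in IUCR and 13.09 to 13.34 in IPCR. Without IUCR B, 2 genes passed. No gene passed against IUCR without IPCR C, IPCR A or IUCR C, nor after quantile normalization. Among the 5 genes that passed against control, the differences from IUCR were 0.73 for Ugt2b1, 0.33 for Med14, -0.34 for Pmm1 and -0.51 for Ltc4s, none of which passed.

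At day 21, the end of the restriction, 1396 genes passed in IPCR against control (9.62%), 382 higher and 1014 lower. For most of them the opposite direction at day 450 is therefore higher in IPCR. The interquartile range at day 21 was 2.26, 2.27 and 2.30 on controls and 2.15, 2.19 and 2.28 on IPCR arrays. The part of array spread in the counts that follow was not tested. Of the 1396 genes, 69 (4.94%) had an unadjusted p below 0.05 at day 450 in the same direction and 205 (14.7%) in the opposite direction, beside 9.82% of all genes higher and 4.95% lower at that age. The difference of the effects at the 2 ages passed for 1189 genes (8.2%), 951 higher at day 450 than at day 21 and 238 lower. After quantile normalization 778 passed, 410 and 368, of which 552 were among the 1189. Without IPCR C of day 450 the count was 642.

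All 5 genes that passed at day 450 had an effect that differed from day 21. They were chosen by their day 450 effect, which is part of this difference, so this is no separate evidence. Pmm1 was the only one of them to pass at day 21, where it rose by 0.31 (limma adjusted p = 0.041) before falling by 0.62 at day 450, and the effects differed by -0.93 (SE 0.13, limma adjusted p = 0.000735). Ltc4s differed by 0.05 at day 21 and Cxcl14 by 0.28. Conversely, the genes with the smallest p for the difference of effects mostly had wide effects at day 21 and values near 0 at day 450. Igfbp2, an IGF binding protein of fetal and fasting liver, rose by 3.38 at day 21 and differed by -0.02 (SE 0.22) at day 450. Igfals, which stabilises circulating IGF-1, differed by -2.30 and then by 0.17, and Esr1, the estrogen receptor, by -2.30 and then by 0.06. Afp, alpha-fetoprotein, and Lpl, lipoprotein lipase, rose by 2.41 and 3.20 at day 21 and differed by 0.04 and 0.21 at day 450. The day 450 effect of these genes was close to 0 next to SE of 0.13 to 0.22.

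Nrep is a case where the sign turned: its day 21 difference was -2.49 and at day 450 it averaged 8.84 ± 0.15 (SD, n = 3) in controls and stood at 9.53, 9.25 and 9.41 in IPCR, a difference of 0.56 (SE 0.11, limma adjusted p = 0.081). Its groups were separate at day 450 with IPCR higher. In the clock, Bmal1 differed by -2.07 at day 21, Dbp by 2.19 and Per3 by 2.24, all 3 passing then, and the change to day 450 passed for 10 of the 24 clock genes. Noct differed by 3.14 at day 21, and its 1.64 at day 450 was not shown to differ from it. Cholesterol synthesis had a day 21 median of -1.18 with 17 of 19 genes lower, against 0.24 at day 450, and 15 of the 19 effects differed. Gluconeogenesis and urea cycle lists had day 21 medians of 0.15 and 0.35, next to 0.28 and 0.31 at day 450, and 5 and 3 of 17 effects differed.

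**Figure D5:**
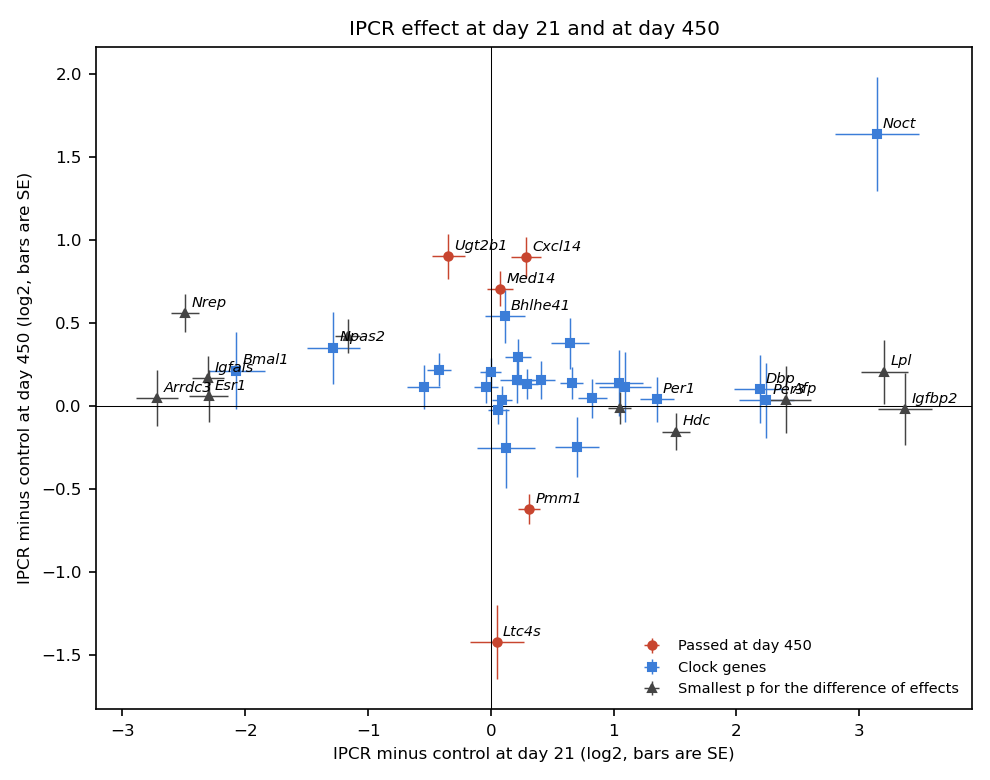
IPCR minus control difference (log2, bars are SE) at day 21 against that at day 450 for the 5 genes that passed at day 450 (circles), the clock genes (squares) and the genes of smallest p for the difference of effects (triangles). The triangles spread from Arrdc3 (-2.72) to Igfbp2 (3.38) along the day 21 axis and reach at most 0.56 (Nrep) at day 450, whereas Noct is above 0 on both axes.

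Folds above 2 were rare. Among genes with unadjusted p below 0.05, 10 were more than 2-fold higher and 6 more than 2-fold lower. Some of these lie outside the rule by which genes were named and were chosen after their values were seen. Akr1c2, a steroid-reducing enzyme, stood at 7.45, 7.48 and 10.58 in controls and at 11.41, 9.79 and 11.82 in IPCR, a difference of 2.50 (SE 0.69, limma adjusted p = 0.164) in which control C overlapped IPCR B. Wfdc21 read 11.34, 9.46 and 10.80 in controls and 8.87, 8.86 and 8.84 in IPCR, a separate difference of -1.68 (SE 0.43, limma adjusted p = 0.153). The aldehyde oxidases Aox3 and Aox1, related genes whose probe signals may not be independent, were separate in opposite directions. Aox3 read 9.66 to 9.86 in controls and 10.51 to 11.18 in IPCR (difference 1.07), and Aox1 read 10.63 to 11.30 in controls and 9.32 to 9.76 in IPCR (difference -1.38).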

How the data were processed

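The arrays are Affymetrix gene arrays. Per the submitters' processing notes, the authors summarised them with RMA in Affymetrix Expression Console (versions not given), and the deposited values are log2 intensities, with array medians of 7.11 to 7.24. Of 29215 probe sets, 15310 carried 1 gene symbol and 323 several. The brightest probe set of each gene was kept, giving 14506 genes. The sources used here give neither scan dates nor detection calls, and the number of arrays limits the precision.

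A model with a mean for each group, over all 15 arrays, was fitted in R 4.3.3 with the package limma 3.58.1 (10 residual degrees of freedom), with Benjamini-Hochberg adjustment over all genes and a threshold of 0.05. The fit was tested on simulated data. Groups are called separate when their 3 and 3 values do not overlap. Alternatives were array centring, quantile normalization, a replicate block, genes above the median level, the mean of probe sets, trended robust moderation, a threshold of 0.10, the interquartile range as covariate, the 6 arrays alone and leaving out each array, and for lists the arrays other than IPCR C were left out as an addition made after seeing the data. Members and lists were chosen with earlier results of these data known. Of 750 list members, 661 were measured. Named genes were those past the threshold; the 12 higher and 12 lower of smallest p with separate groups and p below 0.05 without IPCR C; all clock genes; up to 8 acinar genes; up to 3 per other list with p below 0.05; and the 5 of smallest p on each side against IUCR and for the difference of effects, without locus-number symbols and sensory receptors. Of these 153 genes, 125 had a RefSeq promoter.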

Additional observations from a re-analysis of the deposited data

Results flagged for a closer look

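The effect of IPCR (IPCR minus control, log2) differed between day 450 and day 21 for 25 of the named genes by a test of the difference itself, with a limma adjusted p below 0.05 over all genes. The values below are the effect at day 450 minus that at day 21, over 3 arrays per group at each age.

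For the genes that passed at day 450, the effect was more positive there by 0.61 for Cxcl14, 1.25 for Ugt2b1 and 0.63 for Med14, and more negative with -0.93 for Pmm1 and -1.47 for Ltc4s (SE 0.31). In the clock, the activators and Nfil3 had positive values, 2.29 for Bmal1 (SE 0.33), 1.63 for Npas2, 0.64 for Clock and 0.66 for Nfil3. The outputs had negative values, -2.09 for Dbp, -2.21 for Per3, -1.31 for Per1, -0.78 for Tef, -0.95 for Wee1 and -0.52 for Nr1d2. In each clock gene named here the day 21 effect was the larger in size, and no hour of collection is given for either age.

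The other 10 genes were those of smallest p on each side. Nrep, a neuronal regeneration protein, had 3.05 (SE 0.16), Igfals 2.47, Esr1 2.36, Arrdc3, an arrestin-domain protein, 2.76 and Slc17a3, a phosphate and urate transporter, 1.59. On the negative side Igfbp2 had -3.39, Lpl -3.00, Afp -2.37, Hdc, the histamine-forming enzyme, -1.66 and Cyp2a3 -1.06. Groups of 3 arrays were too small to look for outlying arrays by gap.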

How the results depend on the processing

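With all arrays 5 genes passed against control. The count was 14 after centring arrays on their median and 15 each with genes above the median level and with trended robust moderation, which shared 5, 4 and 4 genes with the main count. It was 3 after quantile normalization, 2 with the 6 arrays alone and 69 at an adjusted threshold of 0.10. The mean of probe sets gave 4, all among the 5, with Pmm1 lost. The count was 0 with the interquartile range as covariate (586 higher and 332 lower at unadjusted limma p below 0.05) or with a replicate block (1400 and 685). No pairing by letter was seen between day 450 IPCR and control. Deviations of same-lettered arrays correlated at 0.01, 0.03 and -0.26, and no IPCR array correlated best with the control of its own letter. With 3 arrays per group this cannot test for a shared litter or batch. Leaving out each array gave 0 to 80 genes. Against IUCR, 6 genes passed; the count was 3 after centring, with the replicate block or with the interquartile range, 0 after quantile normalization (542 higher and 488 lower at unadjusted limma p below 0.05), 1 with trended robust moderation, 10 at 0.10, and 0 to 14 when an array was left out. For the difference of effects, 1189 passed, 778 after quantile normalization, 2009 at 0.10, 112 with the interquartile range and 606 to 1546 when an array was left out. The cause of these shifts was not tested, apart from the threshold.

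For named genes a reversed direction was read where p was below 0.05 in either fit. Pnlip alone reversed, from 0.54 to -0.30 without IPCR C. After quantile normalization the medians of the ribosomal protein, fatty acid oxidation and lipoprotein lists turned from 0.06, 0.06 and 0.03 to -0.08, -0.07 and -0.11, and that of the unfolded protein response went from 0.14 to 0.01. Arrays without detection calls do not show how far low signals such as Med14 stand above background.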

Other observations

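Genes of RNA processing and protein folding had small differences. Of 20 splicing and RNA binding genes, 6 were higher and 0 lower in IPCR at an unadjusted limma p below 0.05, with a median of 0.10 (0.02 after quantile normalization), and 1 was higher without IPCR C. Of the 20, 14 lie in the group of genes of highest level, where 21.1% of all genes were higher. Srsf3, a splicing factor, read 7.55, 7.19 and 7.27 in controls and 7.73, 7.57 and 7.96 in IPCR, with no overlap and a difference of 0.41 (SE 0.12), 0.31 without IPCR C. Sf3b1, of the branch site complex, and the kinase Clk4 differed by 0.22 and 0.27. Among 18 heat shock chaperones the median was 0.15 (0.03 after quantile normalization), with Dnajb1 and the mitochondrial Hspe1 higher by 0.25 each and Hspa4l at 6.70, 6.56 and 7.14 in controls against 6.26, 6.43 and 5.79 in IPCR, a difference of -0.64 (SE 0.20). Of 27 ribosomal protein genes, 26 in the group of highest level, 3 were higher and 0 lower, a share near that of all genes (9.82% higher) and below the 21.1% of that group, with a median of 0.06 as deposited and -0.08 after quantile normalization, and 0 were higher without IPCR C.

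Of 20 matrix and fibrosis genes, Lox, which crosslinks collagen, read 6.41, 6.43 and 6.71 in controls and 7.07, 7.21 and 6.71 in IPCR, a difference of 0.48 (SE 0.13) that was 0.62 without IPCR C, and Thbs1 differed by -0.34. The list median was -0.03. Of 15 genes of the NRF2 antioxidant response, Nfe2l2 itself, which encodes NRF2, differed by 0.32 and its target Osgin1 by -0.42, with a list median of 0.04. Of 15 amino acid response genes, Asns stood at 8.33 in control A and between 6.40 and 7.06 on the other 5 arrays of the comparison.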
